A study of Rattus norvegicus with 99 samples.

Results

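The 10 transcripts of the circadian clock were followed through all 99 libraries of a rat series on pressure overload of the heart. They were Arntl, Clock, Npas2, Per1, Per2, Per3, Nr1d1, Nr1d2, Dbp and Ciart, chosen by gene symbol as rows of the deposited whole-heart table, and they make up 10 of its 17337 genes. All 10 passed the filter on low counts in every fit.

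The animals were 33 male rats of an F1 cross in which the dams were Wistar Kyoto and the sires Lewis. Each gave 1 library of polyadenylated RNA from the left ventricle (LV), the interventricular septum (Spt) and the right ventricle (RV). A clip that did not constrict at first was laid around the pulmonary artery (PAB) or the aorta (AOB) and tightened as the animal grew, and sham-operated animals served as controls. Hearts were taken at a compensated stage (H) and in heart failure (F). Sham-H, PAB-H and AOB-H had 7 animals each, all aged 11 weeks and 7 weeks after surgery. Sham-RF had 2 and PAB-F 3 animals at an age of 27 weeks, 21 weeks after surgery. Sham-LF had 3 and AOB-F 4 animals at 30 weeks, 24 weeks after surgery. Ages follow the labels, from which the study's text departs. Neither the labels nor the study's methods used here give the hour at which hearts were taken or the light schedule, so that the time of sampling was not tested in any comparison that follows.

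The libraries held between 12.1 and 24.2 M counts (M, mega), the median being 17.4 M. All 8 cardiomyocyte markers were high in all libraries, Tnnt2 (troponin T) at 14235 CPM (counts scaled to a common library total) or more, while adipocyte markers summed to 39.5 CPM at most. Some libraries need care. In Sham-H 6, PAB-H 2 and AOB-H 1, genes that separate the ventricles ran in the opposite direction to the labels of LV and RV. The septum of Sham-H 5 was least like the other septa, with a median correlation of 0.954 over all genes, the next lowest being 0.973. The septa of AOB-F 3 and AOB-F 4 were each nearer to the ventricles of the other animal, as described below. The library numbers in the labels run in 3 separate series. For the ventricles of the 3 conditions with 7 animals, series 1 holds animals 1 and 2, series 2 holds animals 3 to 5 and series 3 holds animals 6 and 7. Ventricles of the failure stage are all in series 2, and septa are in series 2 or 3.

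The molecular clock is a loop in which the activators ARNTL (BMAL1), CLOCK and, in its place, NPAS2 bind E-boxes and switch on their own inhibitors. Of these, the PER proteins together with the cryptochromes, and CIART, block the activators directly, whereas NR1D1 and NR1D2 (REV-ERB alpha and beta) repress the Arntl gene through the element they share with the ROR activators. DBP, TEF and HLF form an output arm that acts on D-boxes. In a heart with a running clock, transcripts of Arntl and Npas2 therefore peak at the opposite time of day to those of Dbp and the Nr1d genes, and the heart is known to keep such a rhythm of its own.

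Sequences before the start sites are shown for 4 members whose transcripts either lay at opposite ends of this loop or carried a motif. They come from RefSeq (GRCr8) and are the 250 bases before the start of the transcript listed there. Capitals mark an E-box (CACGTG), a D-box (TTATGTAA or TTATGCAA) or the ROR and REV-ERB element (TAGGTCA), searched on both strands from 250 bases before to 50 bases after the start.
Arntl, chr1:176766078-176766327, plus strand: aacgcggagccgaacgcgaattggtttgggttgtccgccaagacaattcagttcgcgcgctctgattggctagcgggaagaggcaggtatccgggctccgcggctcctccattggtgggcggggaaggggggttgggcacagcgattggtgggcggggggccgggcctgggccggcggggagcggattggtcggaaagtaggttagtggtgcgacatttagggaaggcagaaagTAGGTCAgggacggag
Nr1d1, chr10:84229455-84229704, minus strand: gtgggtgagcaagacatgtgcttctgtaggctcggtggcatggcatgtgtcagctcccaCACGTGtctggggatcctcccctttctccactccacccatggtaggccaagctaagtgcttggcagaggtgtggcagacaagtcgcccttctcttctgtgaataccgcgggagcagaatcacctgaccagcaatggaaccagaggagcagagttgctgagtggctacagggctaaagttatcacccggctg
Ciart, chr2:186112247-186112496, minus strand: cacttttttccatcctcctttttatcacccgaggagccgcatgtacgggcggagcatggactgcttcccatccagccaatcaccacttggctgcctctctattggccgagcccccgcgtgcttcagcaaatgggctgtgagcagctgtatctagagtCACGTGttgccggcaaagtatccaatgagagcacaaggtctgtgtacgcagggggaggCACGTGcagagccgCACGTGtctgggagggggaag
Per2, chr9:99496994-99497243, minus strand: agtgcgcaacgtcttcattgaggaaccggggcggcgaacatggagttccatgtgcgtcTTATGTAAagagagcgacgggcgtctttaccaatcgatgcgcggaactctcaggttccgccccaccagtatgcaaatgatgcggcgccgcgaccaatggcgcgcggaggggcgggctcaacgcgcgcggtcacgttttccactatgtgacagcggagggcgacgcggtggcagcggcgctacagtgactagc
Arntl, the gene that the Nr1d proteins repress, held 1 TAGGTCA, which 2.63% of 33469 promoters held. Nr1d1 held 1 CACGTG and Ciart 3, against 6.42% of promoters with at least 1. Per2 held 1 TTATGTAA, and 1.73% of promoters held either form of the D-box. The windows of Clock, Npas2, Per1, Per3, Nr1d2 and Dbp held none of these letters. Such a match is a description of the sequence and not a site.

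Compared per length, as FPKM (fragments per kilobase of gene length, scaled for library depth), Dbp and the Nr1d genes were above the activators in all libraries, whereas the ranges of Per3 and Ciart overlapped that of Clock. Dbp was highest, at a median of 116 FPKM over 99 libraries (51.2 to 237). Nr1d2 (35.7, 23.7 to 43.5) and Nr1d1 (28.7, 10.7 to 53.0) came next, and their ranges overlapped. Per1 had a median of 20.4 FPKM, Per2 of 14.6, Per3 of 7.65 and Ciart of 7.14, Ciart with the wider range of 1.23 to 22.3. Of the activators, Clock stood at 4.42 FPKM (2.13 to 5.71), Arntl at 0.999 (0.502 to 2.31) and Npas2 at 0.481 (0.159 to 0.846). The counts behind the lowest members were few, 19 to 117 per library for Arntl and 9 to 72 for Npas2, so that their single values are less precise than those of Dbp, with 973 to 6566 counts.

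Between animals, Ciart varied most. Expressed as CPM after the counts of the 3 chambers of an animal were summed, its highest value (27.9 in AOB-H 1) was 10.5 times its lowest (2.67 in Sham-LF 2). The same ratio was 4.00 for Nr1d1, from 31.0 CPM in PAB-H 7 to 124 in Sham-H 2, and 3.65 for Dbp, from 96.6 to 353 CPM in the same pair of animals. Arntl varied 3.12-fold, from 1.88 CPM in Sham-H 5 to 5.85 in AOB-F 1. Ratios of the others lay between 1.73 (Nr1d2) and 2.59 (Per3). In bulk tissue, fewer cells of a type and less RNA per cell cannot be told apart.

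**Figure D1:**
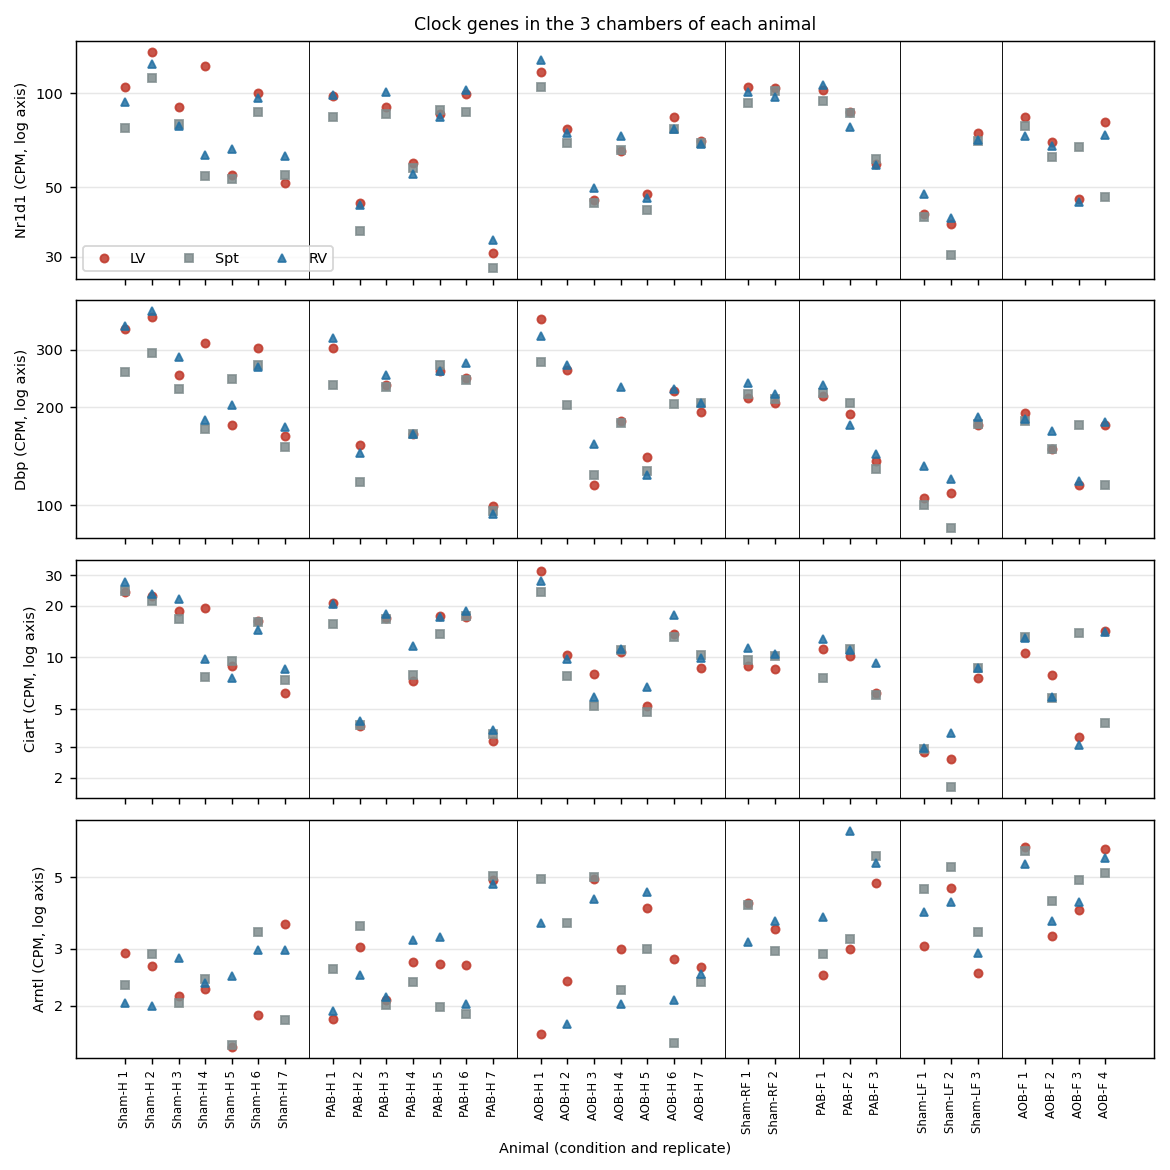
Level of Nr1d1, Dbp, Ciart and Arntl in the LV (circles), Spt (squares) and RV (triangles) library of each of 33 animals, in CPM on a log axis, 1 column per animal. The 3 chambers of an animal lie together for Nr1d1 and Dbp, for example at 27.6 to 33.8 CPM of Nr1d1 in PAB-H 7, while AOB-F 3, AOB-F 4 and Sham-H 4 have 1 chamber apart from the others.

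The chambers of Sham-H 2 and PAB-H 7, shown because their sums of Nr1d1 and Dbp were the highest and the lowest, illustrate how near the 3 values of an animal lay. Nr1d1 was at 136, 112 and 124 CPM in the LV, Spt and RV of Sham-H 2, and at 30.8, 27.6 and 33.8 CPM in the same chambers of PAB-H 7. Dbp, the activator that reads out the loop at D-boxes, was at 379, 294 and 394 CPM in the first animal and at 99.9, 95.9 and 93.9 in the second. Ciart was at 22.8, 21.4 and 23.3 CPM against 3.27, 3.57 and 3.78. Since the animals were picked by these values, the gap between them is a description. Arntl, on the opposite arm, was at 2.66, 2.89 and 2.00 CPM in Sham-H 2 and at 4.90, 5.02 and 4.77 in PAB-H 7.

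Across the 33 animals, LV and RV values of log2 CPM correlated at r = 0.924 for Nr1d1 (rho = 0.889), 0.922 for Dbp (rho = 0.927) and 0.937 for Ciart (rho = 0.902). In each case this reached the smallest p that 100000 two-sided permutations can give (1e-05, adjusted 2e-05 over 30 relations). Leaving out the 2 animals farthest from the median changed r to 0.895, 0.905 and 0.919. Without the 3 animals of doubted ventricle labels r was 0.915, 0.917 and 0.927, and without Sham-H 4 and Sham-H 5 it was 0.975, 0.963 and 0.961. With the septum, whose libraries are numbered in series 2 and 3 only, the same genes reached 0.867, 0.850 and 0.799 (LV) and 0.913, 0.872 and 0.799 (RV). The second REV-ERB, Nr1d2, followed at 0.772 for the ventricles, 0.717 for LV with Spt and 0.854 for Spt with RV. Over 11523 genes the median correlations were 0.481, 0.171 and 0.184. In all, 8 of the 10 members had an r of at least 0.7 between the ventricles, where 15.4% of genes did. With the septum 4 of 10 did, for both ventricles, against 1.36% of genes for LV and 0.607% for RV. After centring within both condition and library series, 5 members between the ventricles, 0 between LV and Spt and 1 (Nr1d2) between Spt and RV had an r of at least 0.7, against 1.75%, 0.0781% and 0.0607% of genes. Ventricles and septum of an animal can belong to different series, so that different sets of animals were then subtracted from them.

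Arntl correlated at 0.645 between the ventricles, 0.616 between LV and Spt and 0.669 between Spt and RV (permutation test, adjusted p = 5e-05, 0.000379 and 5e-05). Npas2, the least abundant member, had the lowest r of the members between the ventricles, 0.295 (permutation test, adjusted p = 0.107). With the septum it was at 0.276 for LV (adjusted p = 0.125) and 0.399 for RV (adjusted p = 0.0249), where Per3 was lower.

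As a single figure, the share of the variance of log2 CPM that lay between animals and not between the chambers of 1 animal was 89.7% for Nr1d1, the second highest of 11523 genes, 88.0% for Dbp (rank 4), 84.5% for Ciart (rank 9) and 77.6% for Nr1d2 (rank 25). The median gene had 27.9%, and 0.686% of genes had 70% or more, as did 4 of the 10 members. Centred within condition and library series, only Nr1d1 of the members did. Arntl had 64.1%, Per1 58.6%, Per2 57.4% and Clock 56.4%, whereas Per3 (38.8%) and Npas2 (31.8%) lay nearer to the median gene.

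**Figure D2:**
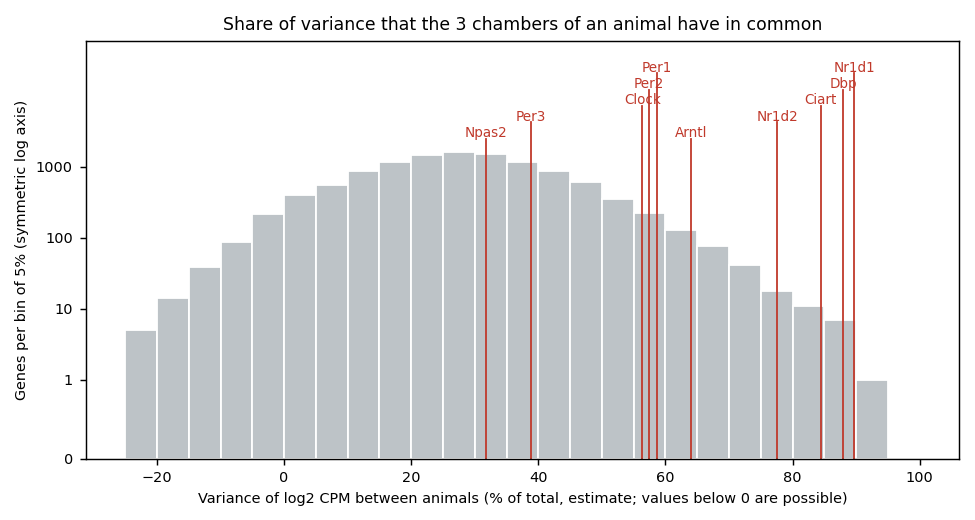
Share of the variance of log2 CPM that lay between the 33 animals, in percent (x axis), over 11523 genes counted in bins of 5% (bars, symmetric log axis), with the 10 clock genes as vertical lines. Nr1d1, Dbp, Ciart and Nr1d2 lie beyond 70%, and Npas2 at 31.8% is near the median of 27.9%.

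A few libraries broke this pattern. In AOB-F 3, Ciart was at 3.46 CPM in LV and 3.09 in RV but at 13.8 in Spt, and in AOB-F 4 it was at 14.3 and 14.0 in the ventricles but at 4.16 in Spt. Nr1d1 (45.9, 67.3 and 44.8 CPM in LV, Spt and RV of AOB-F 3, and 81.1, 46.6 and 73.8 of AOB-F 4) and Dbp (115, 176 and 119, and 176, 116 and 180) did the same. The septum of each animal was thus near the level of the other animal's ventricles, and the cause was not tested. Other genes ran the same way. Over 11427 genes without the members, deviations from the group mean correlated at -0.45 between Spt and LV of AOB-F 3 and at 0.387 between this septum and the LV of AOB-F 4. For the septum of AOB-F 4 the values were -0.38 with its own LV and 0.552 with that of AOB-F 3. The septum of AOB-F 3 also correlated with the LV of AOB-F 1 (0.49) and that of AOB-F 4 with the LV of AOB-F 2 (0.425), so that these values do not single out 1 exchange. With these 2 septa exchanged, the LV with Spt correlation rose from 0.867 to 0.915 for Nr1d1, from 0.850 to 0.896 for Dbp and from 0.799 to 0.930 for Ciart. This pair was picked by the values of the same genes, so that a rise was bound to follow. The rise is a description and cannot be weighed against that of another exchange. A sample sheet of the study orders the septa of AOB-F 1 and AOB-F 2 in exchange, which is another pair of animals, and exchanging those left Nr1d1 at 0.857 and Ciart at 0.781. Labels were kept as deposited throughout, and since both animals belong to AOB-F, an exchange would leave the mean of each chamber as it is. In Sham-H 4 the LV stood apart, with Nr1d1 at 122 CPM against 54.1 in Spt and 63.5 in RV, and Dbp at 315 against 172 and 183. In the septum of Sham-H 5, Per3 was at 6.15 CPM and Per1 at 37.6, against 25.2 and 82.4 in its LV.

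Clock, Per2 and Per3 differed most between library series in the ventricles. PER2 and PER3 belong to the repressor complex of the loop and CLOCK is the partner of ARNTL. In the LV of the 21 animals of the compensated stage, Per3 was at 13.6 ± 2.17 CPM in the 6 animals of series 1, at 27.8 ± 3.63 in the 9 of series 2 and at 31.1 ± 4.33 in the 6 of series 3 (mean ± SD). In RV the values were 13.3 ± 1.92, 27.7 ± 6.48 and 32.7 ± 3.91 CPM. The septa of the same animals, none of which belongs to series 1, were at 26.0 ± 5.29, 24.7 ± 7.87 and 28.1 ± 4.47 CPM. The low ventricle values of the 6 animals were thus not seen in their septa. Clock behaved alike, at 26.7, 42.6 and 42.8 CPM in LV and at 40.4, 40.1 and 44.5 in Spt. Per2 was at 57.4, 87.8 and 91.3 CPM in LV and at 77.6, 85.2 and 88.7 in Spt, where the same animals were lowest as well but by less. The series of the ventricles, by which the septa of the same animals were grouped too, accounted for 87.8% of the variance of Per3 in LV, 84.0% in RV and 5.99% in Spt. For Clock the shares in LV and RV were 74.5% and 88.5%, and for Per2 82.4% and 74.4%. In Spt they were 14.1% for Clock and 17.1% for Per2. Per1 (43.5% and 45.1%) and Dbp (24.0% and 23.3%) had intermediate shares, and Npas2 had 29.4% in Spt. For Nr1d1, Nr1d2, Ciart and Arntl they were 15.1% or less in every chamber.

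**Figure D3:**
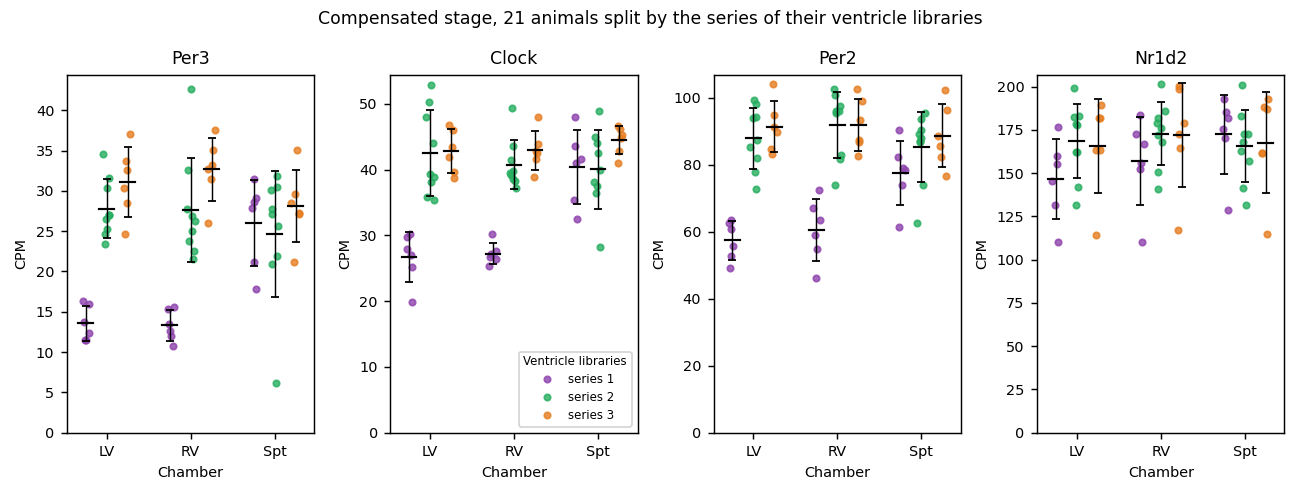
CPM of Per3, Clock, Per2 and Nr1d2 in LV, RV and Spt of the 21 animals of the compensated stage, split by the series of their ventricle libraries (points are animals, bars mean ± SD). In series 1 the ventricles of Per3, Clock and Per2 are low. The septa of the same animals are not low for Per3 and Clock, and for Per2 they are lower by less than the ventricles. Nr1d2 differs less, at a mean of 146.5 CPM in LV of series 1 against 169 and 166 in series 2 and 3.

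After each series was centred on its mean, the LV with RV correlation fell from 0.867 to 0.467 for Clock, from 0.798 to 0.443 for Per2 and from 0.825 to 0.363 for Per3. It remained at 0.919 for Nr1d1, 0.894 for Dbp, 0.930 for Ciart, 0.762 for Nr1d2 and 0.831 for Per1, while 1.82% of all genes then had an r of at least 0.7. Between ventricle and septum, Per3 correlated at 0.180 (LV) and 0.116 (RV), with adjusted p = 0.316 and 0.531 (permutation test). Each series holds animals of all 3 groups of the compensated stage, 2 or 3 of each.

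The opposed arms of the loop were compared through Arntl, with 1 mean of log2 CPM per animal. Arntl was lower in animals with higher Dbp (r = -0.66, rho = -0.68, permutation p = 4e-05, adjusted p = 0.000315 over 9 relations) and higher Nr1d2 (r = -0.64, rho = -0.63, adjusted p = 0.000315). The same held for Ciart (r = -0.55, rho = -0.57, permutation test, adjusted p = 0.00294) and Nr1d1 (r = -0.44, rho = -0.40, adjusted p = 0.0176). With Clock, Arntl correlated positively at r = 0.50 (rho = 0.49, permutation test, adjusted p = 0.00648). No relation passed the threshold with Per1 (r = -0.27, permutation test, adjusted p = 0.201), Npas2 (-0.16, 0.487), Per2 (0.08, 0.725) or Per3 (0.04, 0.833). Without the 2 animals farthest from the median of Arntl, r was -0.71 for Dbp, -0.67 for Nr1d2, -0.66 for Ciart, -0.52 for Nr1d1 and 0.44 for Clock. Among 11522 other genes, 5.27% had an r of -0.6 or below with Arntl, the side on which Dbp and Nr1d2 lie.

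Centring within condition left Arntl with Dbp at -0.62, and centring within library series at -0.60. Within single conditions of 7 animals it was -0.92 in PAB-H and -0.61 in AOB-H, but 0.165 in Sham-H, where Arntl spanned 1.88 to 2.74 CPM only. In PAB-H the relation had 1 far animal, PAB-H 7, with the highest Arntl (4.88 CPM) and the lowest Dbp (96.6 CPM) of the group.

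Among the outputs and repressors, correlations over the 33 animals were high and are given as a description, since all members were read from the same libraries. Dbp correlated with Ciart at r = 0.94 and with Nr1d1 at 0.92, and Nr1d1 with Ciart at 0.89 and with Nr1d2 at 0.78. For Dbp, 1.09% of all genes had an r of 0.6 or above. Clock, Per2 and Per3 formed another block at 0.69 each, which fell to 0.10 for Clock with Per2, 0.11 for Clock with Per3 and 0.17 for Per2 with Per3 after centring within library series. Per3 then joined the first block instead, with its r to Nr1d1 moving from 0.17 to 0.65. Per1 with Ciart moved from 0.64 to 0.83.

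**Figure D4:**
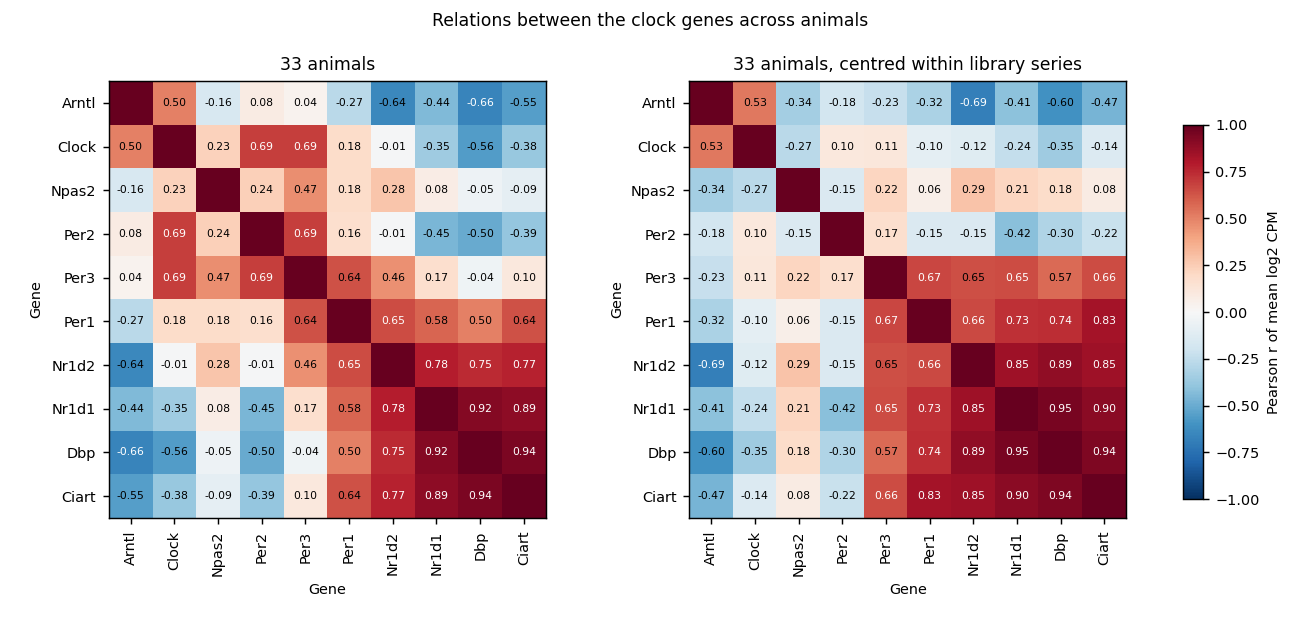
Pearson r of the mean log2 CPM per animal between each pair of clock genes over 33 animals, as measured (left) and after centring within library series (right). Red is positive and blue negative. Nr1d1, Nr1d2, Dbp, Ciart and Per1 form a positive block in both panels, Arntl is negative to it (-0.66 with Dbp on the left, -0.60 on the right), and the positive block of Clock, Per2 and Per3 on the left is not on the right.

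Whether banding moved the clock genes was tested on the sums of the 3 chambers, 1 value per animal, with edgeR's quasi-likelihood test. No member passed an adjusted p of 0.05 in any of the 4 comparisons of banding with its own sham. In PAB-H against Sham-H, 0% of 12379 genes passed. Arntl was at 2.84 ± 0.970 against 2.43 ± 0.296 CPM (mean ± SD, n = 7 each), a log2 difference of 0.22 ± 0.18 (SE). Dbp was at 206 ± 71.9 against 257 ± 66.8 CPM, a difference of -0.32 ± 0.22. None of the 10 members had an unadjusted p under 0.05, where 3.51% of genes did, and the lowest adjusted p was 0.827. In AOB-H against Sham-H, again 0% of genes passed, and no member had an unadjusted p under 0.05 (6.55% of genes). Ciart was at 12.2 ± 7.63 against 15.8 ± 6.89 CPM (-0.38 ± 0.37 on the log2 scale) and Arntl differed by 0.36 ± 0.18 (adjusted p = 0.751). Banded and sham animals overlapped for every member in both comparisons, where 0.0242% (PAB-H) and 0.0808% (AOB-H) of genes did not. DESeq2 called no member in either.

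In heart failure no member passed the test against its own sham either. PAB-F differed from Sham-RF by at most 0.29 on the log2 scale in any member, 0.00808% of genes passed the test and the lowest adjusted p of a member was 0.871. At an unadjusted p under 0.05 there were 0 members and 5.42% of genes. With 3 against 2 animals, Clock (44.6 ± 2.55 against 39.9 ± 2.57 CPM) and Npas2 (2.27 ± 0.257 against 2.74 ± 0.0638 CPM) did not overlap, but neither did 40.3% of all genes. In AOB-F against Sham-LF, 4.7% of genes passed and no member did, and 1 member was at an unadjusted p under 0.05, as were 20.6% of genes. Npas2, which can stand in for CLOCK, came closest, at 1.67 ± 0.270 CPM in 4 animals against 2.34 ± 0.288 in 3, a difference of -0.48 ± 0.18 (adjusted p = 0.114). Its values were 1.35, 1.83, 1.95 and 1.55 CPM in AOB-F and 2.14, 2.67 and 2.21 CPM in Sham-LF. Npas2 and Clock (43.7 to 48.3 CPM in AOB-F, 39.8 to 42.5 in Sham-LF) did not overlap, 2 of 10 members, as was true of 17.5% of genes. With the library series of the ventricles as a covariate Npas2 passed the test (edgeR, adjusted p = 0.0481), as did 13% of genes under that setting. The ventricles of both groups are all in series 2, so that this setting does not correct their difference. It stayed at -0.48. Ciart was at 12.2, 6.52, 6.80 and 10.0 CPM in AOB-F and at 2.91, 2.67 and 8.31 in Sham-LF (0.93 ± 0.56, adjusted p = 0.369), and the groups overlapped.

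The difference of the responses at both stages was tested as well. For aortic banding it was largest in Ciart (1.31 ± 0.67 on the log2 scale, adjusted p = 0.711) and Npas2 (-0.55 ± 0.22, adjusted p = 0.599), and for pulmonary artery banding in Npas2 (-0.37 ± 0.24, adjusted p = 1). None passed, as for 0% of all genes in either. At an unadjusted p under 0.05 there were 2 members for aortic banding, Npas2 and Per1, against 7.2% of genes, and 0 for pulmonary artery banding, against 1.32%.

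In single chambers no member passed in any of these comparisons either. For AOB-F against Sham-LF, 0.837% of genes passed in LV, 0.232% in Spt and 0% in RV, and for the other comparisons of banding 0% passed in each chamber. In the septum, Clock was at 44.4 ± 2.93 CPM in AOB-H and 38.3 ± 6.53 in Sham-H (0.22 ± 0.08, edgeR, adjusted p = 0.245). In the right ventricle, Per1 was at 77.2 ± 15.8 CPM in AOB-F and 53.0 ± 15.1 in Sham-LF (0.55 ± 0.23, adjusted p = 0.352).

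**Figure D5:**
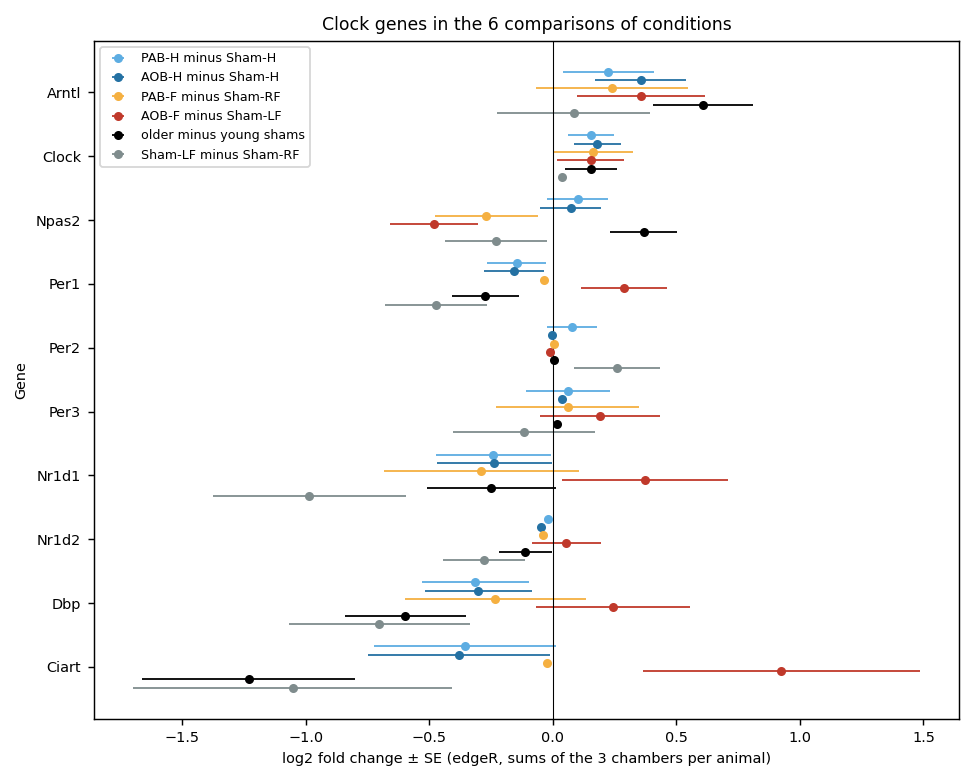
Log2 fold change ± SE (edgeR, sums of the 3 chambers per animal) of the 10 clock genes in 6 comparisons of conditions. Points without a bar are differences under 0.05, for which no SE is given. The largest differences are those of Ciart between sham groups (-1.23 and -1.05), while differences of PAB-F from Sham-RF are at most 0.29 in size.

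Larger differences lay between groups of shams. Arntl was higher in the older shams, at 3.85 and 3.36 CPM in Sham-RF and 3.81, 4.74 and 2.94 in Sham-LF, against 1.88 to 2.74 CPM (median 2.45) in the 7 Sham-H animals. The groups did not overlap, as for 2.38% of genes. The log2 difference was 0.61 ± 0.20 and did not pass the test (adjusted p = 0.119), while 1.24% of 12379 genes passed. Ciart was at 9.77, 9.64, 2.91, 2.67 and 8.31 CPM in these older animals and at 7.36 to 25.4 CPM (median 15.5) in Sham-H, a difference of -1.23 ± 0.43 (adjusted p = 0.139). Dbp was at 166 ± 54.4 against 257 ± 66.8 CPM (-0.60 ± 0.24, adjusted p = 0.205) and Npas2 at 2.50 ± 0.301 against 1.96 ± 0.279 CPM (0.37 ± 0.14, adjusted p = 0.158). Thus 4 of 10 members had an unadjusted p under 0.05, Arntl and Npas2 higher and Dbp and Ciart lower, against 16.4% of genes. Nr1d1, the direct repressor of Arntl, differed by -0.25 ± 0.26 only, and Per2 and Per3 by less than 0.05.

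In single chambers 0.0171% (LV), 0.103% (Spt) and 0.0852% (RV) of genes passed and no member did. Ciart differed by -1.44 ± 0.48 in LV, -1.15 ± 0.45 in Spt and -1.09 ± 0.46 in RV, with adjusted p of 0.438, 0.211 and 0.397 (edgeR).

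The call turned on 1 animal. Sham-LF 3 had Ciart at 7.60, 8.64 and 8.68 CPM in LV, Spt and RV, whereas Sham-LF 1 was at 2.83, 2.93 and 2.98 and Sham-LF 2 at 2.56, 1.76 and 3.62. Without Sham-LF 3, Arntl (0.69 on the log2 scale, edgeR, adjusted p = 0.0468) and Ciart (-1.60, adjusted p = 0.0344) passed the test, as did 5.94% of genes. Beside the clock genes, 2 of 5 tested fibroblast markers, Col1a1 and Col3a1, were lower in the older shams (-0.86 ± 0.14 and -0.84 ± 0.13, adjusted p = 0.00244 and 0.000662). The markers of this list summed to 2137 to 2645 CPM there and to 2674 to 3402 CPM in Sham-H, with Col1a2 near 0 in all libraries. The endothelial marker Vwf was higher (0.44 ± 0.09), 1 of 6 of its list, whose sum was 1004 to 1225 CPM against 806 to 1086 CPM. Their part in the result was not tested. All older ventricles belong to library series 2, whereas Sham-H holds animals of all 3.

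The older sham groups were also compared with each other, and no member passed the test. Nr1d1 was at 99.2 and 101 CPM in Sham-RF and at 42.7, 36.6 and 71.9 in Sham-LF, a log2 difference of -0.99 ± 0.39 (unadjusted p = 0.0177, adjusted p = 1, edgeR). Per1 was at 94.0 and 79.9 CPM against 61.3, 48.8 and 77.8 (-0.47 ± 0.21), Dbp at 221 and 212 against 112, 106 and 180 (-0.70 ± 0.37), and Ciart at 9.77 and 9.64 against 2.91, 2.67 and 8.31 (-1.05 ± 0.64). In 7 of 10 members these groups did not overlap, against 22.4% of genes at 2 against 3 animals, and 0% of genes passed the test. Dbp, Nr1d1, Nr1d2 and Ciart among them were correlated over all animals and are not separate observations. At an unadjusted p under 0.05 there were 2 members, Nr1d1 and Per1, and 3.7% of genes. Nr1d1, Per1, Dbp, Ciart, Nr1d2 and Npas2 were lower in Sham-LF and Per2 was higher. These groups also differ in age, and age and the hour of sampling cannot be told apart here.

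Other genes of the pathway were counted from lists of known members. Of the other members of the loop, 7 of 11 were in the table and 6 were tested. Tef, a sister of Dbp, was at 207 ± 22.9 CPM in the 5 older shams and 267 ± 29.9 in Sham-H, and fell by 0.37 ± 0.08 (edgeR, adjusted p = 0.0227). The median of these 6 genes was -0.12, and that of all genes 0.00. Cry1, which blocks the activators, differed by -0.15 ± 0.12 (adjusted p = 0.572) and Cry2 by -0.09 ± 0.06 (adjusted p = 0.450). Of the clock-controlled genes of heart, 1 of 10 tested fell, Dgat2, an enzyme of triglyceride synthesis, from 50.4 ± 9.51 to 37.5 ± 4.88 CPM (-0.46 ± 0.12, adjusted p = 0.0405). Klf15, a regulator of cardiac metabolism, differed by -0.36 ± 0.12 (adjusted p = 0.122). None of 7 kinases and ubiquitin ligases of clock proteins, 9 glucocorticoid-induced genes or 11 immediate early genes passed in this comparison. The immediate early genes nearest to the threshold were higher, Ier2 by 0.57 ± 0.16 (adjusted p = 0.0644), Junb by 0.57 ± 0.16 (adjusted p = 0.0745) and Egr1 by 1.29 ± 0.39 (adjusted p = 0.0845).

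In the comparisons of banding, 1 gene of the pathway lists passed. Btrc, a ubiquitin ligase subunit that marks PER proteins for decay, was at 22.9 ± 4.44 CPM in AOB-F and 16.9 ± 1.90 in Sham-LF (0.44 ± 0.11, edgeR, adjusted p = 0.0229), 1 of 7 tested in its list, where 4.7% of all genes passed. In the same comparison 3 of 8 cardiomyocyte markers (Myh6, Tnni3 and Pln) were lower, and their list summed to 72799 to 83449 CPM against 82745 to 94130 CPM, while 1 of 5 atrial markers (Nppa) and 1 of 5 tested fibroblast markers (Col1a1) were higher. Their part in the result was not tested.

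Neighbours on the genome were checked because the strand setting of the counting is not given in the sources used here. Thra, which overlaps Nr1d1 on the opposite strand, ranged from 60.7 to 85.2 CPM between animals and Sphk2, next to Dbp, from 27.7 to 39.2 CPM. Thra correlated with the index of the members described last at 0.53 and Sphk2 at -0.57. The part of shared reads was not tested. Hes7, near Per1, reached 0.617 CPM at most.

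Chambers differed little. Npas2 was the exception, at 2.35 ± 0.578 CPM in RV and 1.84 ± 0.451 in LV over 33 animals, higher in RV in 27 of 33. The difference of 0.35 ± 0.09 passed the test (edgeR, adjusted p = 0.00334), as did 28.4% of genes, a share above that of the members called, 1 of 10. This fit did not pair the chambers of an animal. With the animal as a block Npas2 passed as well (edgeR, adjusted p = 0.00101), as did 36.6% of genes. Without the 3 animals whose ventricle labels are in doubt the difference was 0.38 (adjusted p = 0.000893, edgeR). In Spt, Npas2 was at 2.06 ± 0.494 CPM. No member passed between Spt and LV (9.37% of genes) or between RV and Spt (23.4%). With the animal as a block, Nr1d1 was lower in Spt than in LV (-0.13, edgeR, adjusted p = 0.0451), in 28 of 33 animals, and 14.1% of genes passed. Dbp was higher in RV than in Spt (0.14, adjusted p = 0.0263) in 25 of 33, and Clock lower (-0.14, adjusted p = 0.0189) in 25 of 33, where 31.9% of genes passed.

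The contrast of both arms was summed up as an index per animal, the mean standardised level of the 7 repressor and output genes minus that of the 3 activators. It is a description without a test. The members are part of this index and followed it unequally. Dbp (r = 0.91), Ciart (0.89), Nr1d1 (0.78), Nr1d2 (0.74) and Per1 (0.55) lay on one side, and Arntl (-0.78) and Clock (-0.53) on the other. Per3 (0.03), Npas2 (-0.19) and Per2 (-0.26) followed it weakly, Per2 with the sign of the activators. After centring within library series, Per1 was at 0.71, Per3 at 0.55, Per2 at 0.06 and Npas2 at -0.004. Medians of the index without centring were 0.83 in Sham-H, 0.82 in PAB-H and 0.34 in AOB-H, and -0.32 in Sham-RF, -0.36 in PAB-F, -1.41 in Sham-LF and -0.53 in AOB-F. Its range within PAB-H alone, from -1.85 to 1.31, covered the medians of all conditions. Of 11523 genes, the members aside, those most like it over the 33 animals were Fam76a (r = 0.85), Tmem86a (0.83), Pik3ip1 (0.82), Ephb1 (0.79) and Cdh26 (0.79), and those most opposed were Hspa8 (-0.80), a constitutive chaperone, Hpse (-0.77), Misp (-0.76), B3galt2 (-0.74) and Txndc11 (-0.74). Of the genes on the lists, Klf15 (0.72), Tef (0.66), Cry2 (0.65) and Bhlhe40 (0.51), a repressor at E-boxes, went with it, Ucp3, the mitochondrial uncoupling protein of muscle, went against it (-0.73), and Cry1 was at -0.25 and Nfil3, the repressor at D-boxes, at -0.35. Correlations of other clock-controlled genes of heart with the index lay between those of Klf15 and Ucp3. They were 0.47 for Usp2, 0.35 for Wee1, 0.33 for Dgat2, 0.14 for Nampt, -0.06 for Por, -0.19 for Pdk4 and -0.50 for Cdkn1a. Of the cell type lists, fibroblast markers correlated with it at 0.44 (Col1a1 at 0.68 and Col3a1 at 0.59, but Dcn at -0.25, Pdgfra at -0.29 and Lum at 0.02), and macrophage markers at -0.36, and the other 7 lists lay between -0.34 and 0.11. After centring within condition, Col1a1 was at 0.39, Col3a1 at 0.14, Lum at -0.03, Dcn at -0.26 and Pdgfra at -0.58.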

How the data were processed

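Polyadenylated RNA of 99 heart libraries was sequenced. Per the labels and the study's methods, the authors trimmed reads with Trim Galore, aligned them with STAR, counted them per gene with featureCounts and normalized with DESeq2. Reads were mapped to the rat build Rnor6.0 with UCSC annotation, and reads over several genes were not counted. The strand setting is not given in the sources used here. The deposited table holds counts, normalized counts (a signal made by the authors as counts divided by a size factor per library) and FPKM, which the authors derived from the normalized counts and gene length. Columns were tied to samples by title, because 1 description names another group and the tissue field of RV samples names the left ventricle.

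Counts were tested with edgeR 4.0.16 in R 4.3.3 (quasi-likelihood, TMM, filterByExpr, 7 conditions in 1 fit, no covariate, Benjamini-Hochberg over all genes tested) on sums of the 3 chambers per animal (12379 genes) and on each chamber (11703 genes in LV, 11624 in Spt, 11734 in RV). A single fit of 99 libraries compared chambers (11924 genes). DESeq2 1.42.0 was an alternative. No SE is given where a log2 difference was under 0.05. Correlations used log2 CPM and 100000 permutations in scipy 1.17.1, two-sided. The share of variance between animals came from variance components after subtraction of chamber means. Except between chambers, p-values measure the spread between animals. The main fit of the chambers took the 99 libraries as independent, and the animal as a block was its alternative. The test was tried on simulated data of LV only, not of the sums.

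The members, the lists and the tests were chosen with earlier results of these data known. All 10 members were named, with the genes of the lists that passed a test or lay next in order, and the 5 genes most like and most unlike the index.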

Additional observations from a re-analysis of the deposited data

Results flagged for a closer look

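Of 160 groups of 4 to 10 samples, 10 (6.25%) had 1 animal far from the others by Dixon's criterion, and chance marks about 1 in 20. In sums of the chambers, Arntl was highest in PAB-H 7 at 4.88 CPM, the next animal being at 3.05. Ciart was highest in AOB-H 1 at 27.9 CPM against 15.1, and Per2 in AOB-F 3 at 93.9 against 87.1. In LV, Arntl of PAB-H 7 was at 4.9 CPM (next 3.05), Ciart of AOB-H 1 at 31.8 (next 13.8), Npas2 of Sham-H 1 lowest at 0.716 (next 1.6) and Nr1d2 of Sham-H 2 lowest at 110 (next 160). In Spt, Per3 was lowest in Sham-H 5 at 6.15 CPM (next 22) and highest in AOB-F 3 at 32.5 (next 28.9). In RV, Nr1d1 was highest in AOB-H 1 at 128 CPM (next 76.8). The causes were not tested.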

How the results depend on the processing

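No member was called in the comparisons of conditions, and this held under all alternatives but those that follow. With the replicate number as a block, older against young shams called 3 members in LV (Clock, Dbp, Ciart, with 8.21% of genes) and 4 in the sums (Clock, Npas2, Dbp, Ciart, with 6.75% of genes). The labels do not pair animals by number, but in the groups of 7 the number goes with the library series of the ventricles. Deviations of same-numbered animals correlated at -0.26 to 0.716, and 2 of 7 AOB-H animals went best with their own number. Leaving out 1 animal gave 0 to 2 members in the sums and 0 to 1 in Spt, both highest without Sham-LF 3. Library series as a covariate called 1 member in AOB-F against Sham-LF (Npas2, 13% of genes), groups whose ventricles share the same series. The animal as a block called 1 member between Spt and LV (Nr1d1, 14.1% of genes) and 2 between RV and Spt (Clock, Dbp, 31.9% of genes). Members with an r of at least 0.7 between LV and RV were 5 in place of 8 after centring within library series (1.82% of genes). Within condition and series they were 5 as well (1.75% of genes). That setting left 0 of 4 between LV and Spt (0.0781% of genes) and 1 of 4 between Spt and RV (0.0607%). It left 1 of 4 with a share of variance of at least 70% (0.0868% of genes). For Arntl with Dbp, r was 0.165 in Sham-H alone, and likewise 0.399 with Nr1d1, 0.152 with Nr1d2 and 0.247 with Ciart. The cause was not tested. Centring within condition and series, the exchange of the AOB-F 3 and AOB-F 4 septa and the single conditions were chosen after seeing the data. Over all genes, calls in the sums for AOB-F against Sham-LF (582) ranged from 1 to 1611 across alternatives and fell to 28 with 1 animal left out, and those for older shams (154) fell to 3 and ranged from 19 to 736 with 1 animal left out. Npas2 and Arntl, with few counts per library, limit what single chambers can show.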

Other observations

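Some other transcripts known to respond to hormones or handling also went with the animal. The share of variance between animals was 86.1% for Fkbp5, a glucocorticoid-induced gene (rank 7 of 11523), and 85.7% for Dusp1, a phosphatase of the early response (rank 8). It was 77.1% for Egr1, 76.8% for Junb and 74.1% for Fos, all immediate early genes, and 0.686% of genes had 70% or more. Others of these lists had less, Klf9 34.7%, Fosb 42.6%, Cebpd 45.2% and Tsc22d3 47.9%. Correlations with the clock index over 33 animals, given as a description, were 0.16 for Fkbp5, -0.30 for Dusp1, -0.37 for Junb, -0.31 for Fos and -0.50 for Egr1. Among others of these lists they were -0.54 for Egr2, -0.51 for Jun and Sgk1, 0.54 for Mt2A and 0.61 for Klf9. They were nearer to 0 for Errfi1 (0.03), Tsc22d3 (0.04), Cebpd (0.05), Zbtb16 (0.13), Fosb (-0.04) and Nr4a1 (-0.07). Of the other members of the loop, Tef (82.8%, rank 13) and Cry1 (77.9%, rank 22) were likewise shared by the chambers of an animal. Nfil3 (48.1%), Bhlhe40 (41.2%) and Cry2 (38.7%) of the same list had less.

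By the levels of the 10 members alone, the library of an animal was nearest to that of the same animal in another chamber in 9 to 16 of 33 animals over the 6 directions between chambers, and in 15 to 23 of 33 when the search was kept to the 2 to 7 animals of its condition. A search among fewer animals raises this count by itself, and no random level was drawn. After centring within library series, the counts over all animals were 7 to 12 of 33. LV and RV of an animal also share the library series.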
